A study of Mus musculus with 4 samples.

Results

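The genes described here are 40 mouse genes of the type I interferon-stimulated antiviral response, chosen by name. They were found on the arrays through the RefSeq accession of each probe, and the brightest probe stood for its gene. Of the 40 genes, 38 were measured and 2, Mx1 and Mx2, were not matched to a probe, so the set made up 38 of the 24565 features tested. RNA levels were measured on 2-colour Agilent arrays in the ipsilateral cortex. The tissue was taken 24 h after permanent occlusion of the middle cerebral artery on the left by electrocoagulation (pMCAO), a model of ischaemic stroke. All mice were of the strain C57BL/6, 8 weeks old, and had the occlusion. The 4 arrays each held 1 sample from Ndrg2KO mice, labelled with Cy3, and 1 sample of the same replicate number from wild-type mice, labelled with Cy5. Neither the promoter or exon targeted in the knockout nor the number of animals behind a sample is stated in the labels. No sample without occlusion was analysed here, so the values compare the genotypes after injury and do not show induction by ischaemia.

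Type I interferons are secreted proteins that cells make when their sensors detect foreign or misplaced nucleic acid. They bind a receptor made of IFNAR1 and IFNAR2, the attached kinases JAK1 and TYK2 phosphorylate STAT proteins, and the complex of STAT2 and IRF9 with a partner STAT enters the nucleus. There it binds the interferon-stimulated response element (ISRE) in front of genes whose products block viral replication, sense more nucleic acid or damp the response. In the brain, microglia, astrocytes, endothelial cells and infiltrating leukocytes can all express such genes, and many of them are known to be induced after ischaemia.

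The arrays carried 43020 non-control spots each. Between 73.6 and 74.9% of these were well above background in the knockout-labelled channel and between 76.7 and 79.0% in the wild-type channel. No spot was saturated. Changes are given as log2 of knockout-labelled over wild-type signal, after background correction and loess normalization within each array. A change was called when limma's test against 0 over the 4 arrays gave an adjusted p under 0.05 over all 24565 features. Because no array had the dyes reversed, a dye effect of a single probe cannot be told apart from genotype. The labels do not name separate animals, so p-values reflect the spread among these samples alone, part of which may be technical. The probe of the targeted gene, Ndrg2, was at -0.22, -0.22, -0.18 and -0.11 on replicates 1 to 4 and its mean fell by 0.18 (log2; SD 0.05 over 4 arrays; adjusted p = 0.0248 by limma). This small difference does not check the genotype, because the place of the probe relative to the deleted part is not known, so the samples are called knockout-labelled. With the scanner software's own signals Ndrg2 stood at -0.04 and was not called. All 12 neuron and all 13 astrocyte markers listed were measured, with mean log2 signals of 13.7 to 13.8 for neurons and 13.2 to 13.4 for astrocytes. Across features, which are not independent replicates, Pearson correlations of the ratios were 0.73 for the arrays of replicates 1 and 2, 0.63 for those of replicates 3 and 4, and 0.41 to 0.48 for other pairs.

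The promoters show what many of these genes share in sequence. RefSeq promoters (GRCm38.p6, 250 bases before to 50 after the start) were at hand for 31 of the 40 genes. The ISRE core, spelled GAAANNGAAA and searched on both strands, stood in 13 of these 31 (41.9%), against 3.99% of 27025 genes in the same table. It was found in Stat2, Ifih1, Ddx58, Eif2ak2, Oas1a, Oas3, Ifit1, Ifit3, Rsad2, Bst2, Ifitm3, Isg15 and Trim30a. The gamma-activated sequence, spelled TTCNNNGAA and the same on both strands, stood in 8 of 31 (25.8%) against 9.55% of genes. A match is a description of the letters and not a site shown to be bound. The stretches below, from the RefSeq table, are those of genes to which the results return. The first is of a called transcription factor, the next 4 are of genes with large differences on replicate 2, and the last is of a gene whose mean was above 0. Matches to the core are in capitals, also where they overlap or lie on the reverse strand as TTTC repeats.
Stat2: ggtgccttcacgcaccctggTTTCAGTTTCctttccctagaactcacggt
Oas1a: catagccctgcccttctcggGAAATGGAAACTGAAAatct
Ifit3: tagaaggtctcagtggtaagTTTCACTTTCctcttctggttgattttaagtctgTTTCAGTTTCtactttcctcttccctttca
Rsad2: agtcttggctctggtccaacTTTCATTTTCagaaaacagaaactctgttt
Isg15: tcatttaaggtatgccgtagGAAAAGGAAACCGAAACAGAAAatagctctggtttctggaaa
Bst2: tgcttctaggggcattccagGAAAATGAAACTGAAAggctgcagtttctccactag

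These stretches lie at chr10:128270256-128270305 (plus strand) for Stat2, chr5:120907526-120907565 (minus) for Oas1a and chr19:34583353-34583436 (plus) for Ifit3. Those of Rsad2, Isg15 and Bst2 lie at chr12:26456543-26456592, chr4:156200855-156200916 and chr8:71537567-71537622, all on the minus strand. All are upstream of the annotated start. Isg15 had 3 overlapping matches, the first 78 bases before the start, and Oas1a had 2, the nearest 14 bases before it. Ifit3 had 2 separate matches, 156 and 122 bases before its start.

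Of the 38 genes measured, 5 were lower in the knockout-labelled samples and 0 were higher. The 5 were Stat2, Isg20, Ifitm3, Trim25 and Lgals3bp, with log2 ratios from -0.30 to -0.50. That is 13.2% of the set, and 12.7% of all features were called lower (8.63% higher), so the share called was near the background and is not a result about these genes. At an unadjusted p under 0.05 limma placed 14 genes lower (36.8%, against 22.1% of all features) and 0 higher. The mean log2 ratio was below 0 for 35 of 38 genes (92.1%), against 55.7% of all features, and the median over the genes was -0.28 against -0.02 over all features. Oas3 is among these 35 and in the counts by array and by sample below. It was kept through the wild-type channel alone, so the filter favoured a ratio below 0 for it. Ratios below 0 on all 4 arrays were seen for 15 genes (39.5%, against 25.1%). Every knockout-labelled sample was below every wild-type sample for Lgals3bp, Sp100 and Trim30a (7.89%, against 10.6%). Without the pairing of samples by array (no replicate block), Lgals3bp and Trim25 were the 2 genes called. With plain background subtraction 0 genes were called by limma (13 at an unadjusted p under 0.05), and with the scanner software's signals Stat2 was the 1 gene called. In each of these settings fewer of all features were called lower too, with the counts given at the end.

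**Figure D1:**
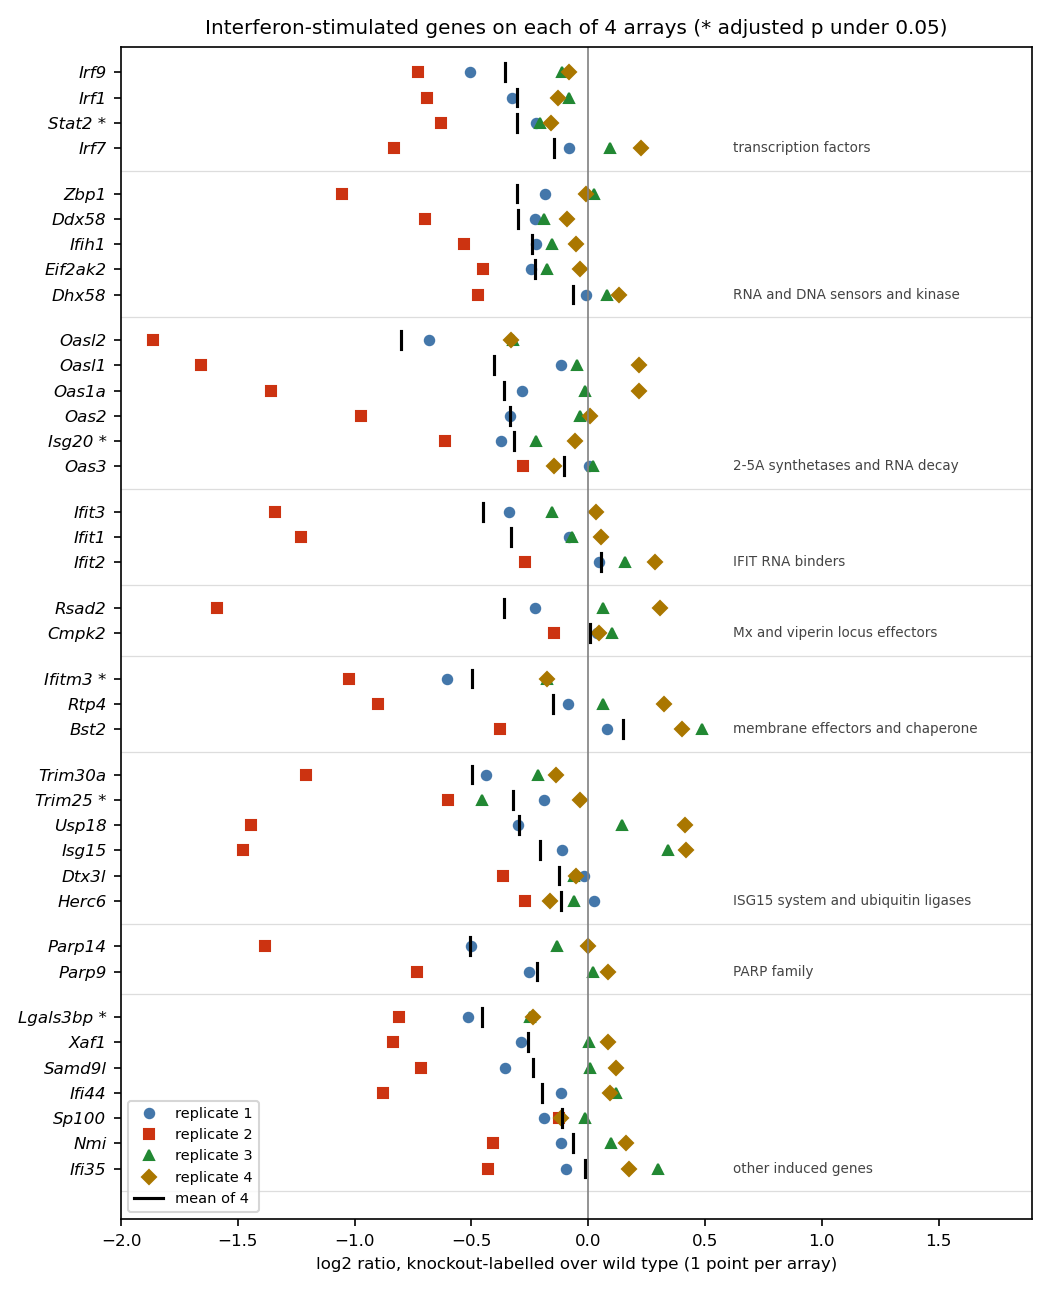
Log2 ratio (knockout-labelled over wild-type signal, x axis) for the 38 genes measured, grouped by role, with 1 point per array and a bar at the mean of the 4. Replicate 2 (squares) is the leftmost point for 37 of the 38 genes, and the 5 genes with an asterisk were called lower at an adjusted p under 0.05.

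The size of the difference depended on the array. The median over the 38 genes was -0.23 on replicate 1, -0.73 on replicate 2, -0.02 on replicate 3 and 0.02 on replicate 4, while the median over all features was -0.02 on each. Genes with a ratio below 0 numbered 33, 38, 21 and 18 on replicates 1 to 4. Replicate 2 had the lowest of the 4 ratios for 37 genes, Sp100 being the exception, whereas it was lowest for 25.2% of all features. On that array 26 genes were at least 1.5-fold lower (68.4%, against 1.74% of all features) and 12 were at least 2-fold lower (31.6%, against 0.448%). The 12 were Ifit1, Ifit3, Ifitm3, Isg15, Oas1a, Oasl1, Oasl2, Parp14, Rsad2, Trim30a, Usp18 and Zbp1. Without replicate 2 the median over the genes was -0.06, 2 genes (Lgals3bp and Oasl2) were lower with limma at an adjusted p under 0.05, and 4.96% of all features were. Without replicate 1 no gene was called, 12 being lower at an unadjusted p under 0.05, and the median was -0.27. Fewer of all features were called lower in that setting too. Without both, the median was -0.01.

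**Figure D2:**
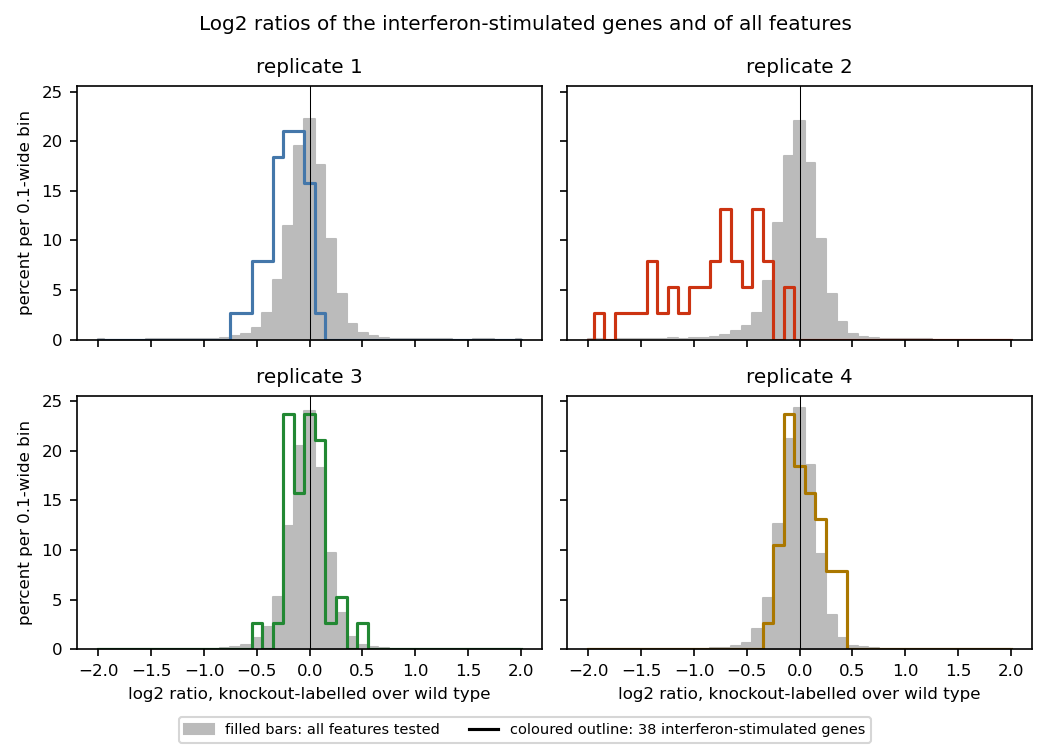
Distribution of log2 ratios on each of the 4 arrays, as percent of features per bin of 0.1 (y axis), for all features tested (filled) and for the 38 interferon-stimulated genes (outline). On replicate 2 the outline is centred far to the left, with a median of -0.73, and on replicates 3 and 4 it lies over the filled bars, with medians of -0.02 and 0.02.

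The signs on the arrays fell into a few patterns. The ratio was below 0 on replicates 1 and 2 and above 0 on replicates 3 and 4 for 12 genes: Dhx58, Ifi35, Ifi44, Irf7, Isg15, Nmi, Parp9, Rsad2, Rtp4, Samd9l, Usp18 and Xaf1. A further 5, Ifit1, Ifit3, Oas1a, Oas2 and Oasl1, were above 0 on replicate 4 alone. Bst2, Cmpk2 and Ifit2 were below 0 on replicate 2 alone. Herc6, Oas3 and Zbp1 each had a pattern of their own. The SD of the ratio over the arrays had a median of 0.38 over the genes, against 0.10 over all features, and the 4 ratios spanned more than 1 on the log2 scale for 13 genes (34.2%, against 0.867%).

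The levels in the separate channels show which samples were high. The wild-type sample of replicate 2 was the highest of the 4 wild-type samples for 37 of 38 genes, against 23.3% of all features. With each gene centred on its mean over the wild-type samples, the median over the genes was -0.18, 0.35, -0.03 and -0.14 in wild-type replicates 1 to 4. In the knockout-labelled samples the same medians were -0.15, -0.14, 0.21 and 0.13. The lowest knockout-labelled sample was replicate 2 for 21 genes and replicate 1 for 16, and the highest was replicate 3 for 29 genes and replicate 4 for 8. The wild-type samples spanned a wider range than the knockout-labelled ones for 31 of 38 genes (81.6%, against 37.8% of all features). The median range was 0.52 on the log2 scale in wild type and 0.43 in the knockout-labelled samples, against 0.18 and 0.21 over all features. Both genotypes thus varied among themselves: wild-type replicate 2 was high, and knockout-labelled replicates 1 and 2 were lower than replicates 3 and 4.

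**Figure D3:**
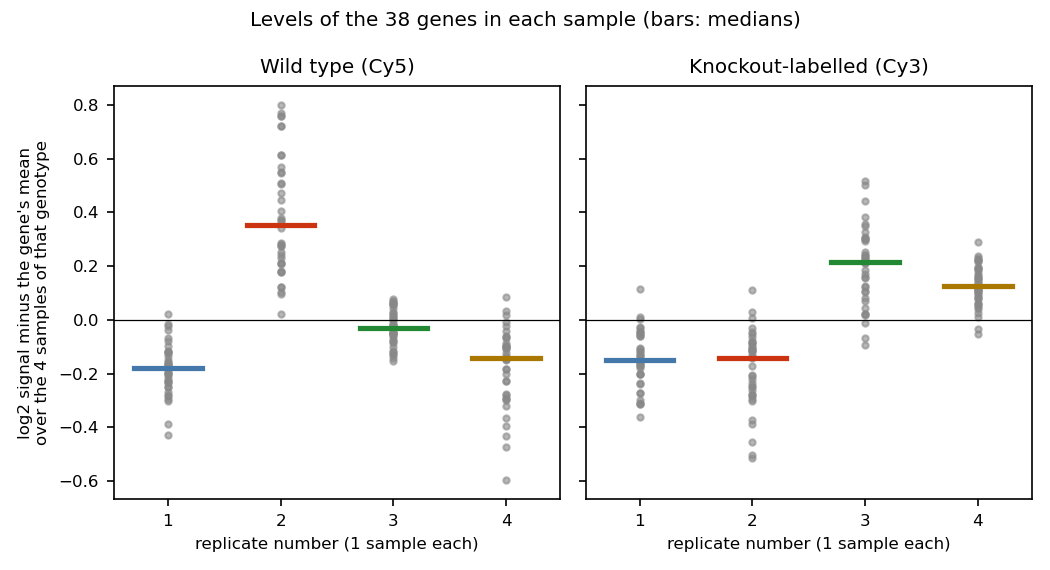
Log2 signal of each of the 38 genes minus that gene's mean over the 4 samples of the same genotype (y axis), by replicate number (x axis), with knockout-labelled and wild-type samples in separate panels and bars at the medians. The wild-type sample of replicate 2 has a median of 0.35, and the knockout-labelled samples of replicates 1 and 2 have medians of -0.15 and -0.14.

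Among the transcription factors, 1 of 4 was called and all 4 means were below 0. Stat2 encodes the STAT protein that is particular to the type I and III receptors. Its log2 signal was 10.99, 11.03, 11.28 and 11.16 in knockout-labelled replicates 1 to 4 and 11.22, 11.66, 11.48 and 11.32 in wild-type replicates 1 to 4. The groups overlapped, because knockout-labelled replicate 3 lay above wild-type replicate 1. Stat2 fell by 0.30 ± 0.22 (SD, n = 4), or 1.24-fold (adjusted p = 0.0361 by limma), with ratios of -0.23, -0.63, -0.21 and -0.16. The call ended without replicate 1 (-0.33), 2 (-0.20) or 3 (-0.34).
Irf9, which supplies the DNA-binding part of the complex with STAT2, had the largest mean of this group. Its ratios were -0.51, -0.73, -0.11 and -0.08, a mean of -0.36 ± 0.31 that was not called (adjusted p = 0.0545). Replicates 1 and 2 were low and replicates 3 and 4 were close to 0. Irf1, a factor that also acts downstream of interferon-gamma, was at -0.31 ± 0.28 (adjusted p = 0.0618). Irf7, the amplifier of interferon-alpha production that is itself interferon-induced, was at -0.15 ± 0.47, with an interval of -0.51 to 0.22 (95% confidence), and its ratio was above 0 on replicates 3 and 4.

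None of the 5 nucleic acid sensors and kinases was called by limma (adjusted p from 0.0530 to 0.649), with 3 at an unadjusted p under 0.05. Zbp1, the Z-form nucleic acid sensor that can trigger necroptosis, had the largest mean of this group and ratios of -0.18, -1.05, 0.03 and -0.01. Its mean was -0.31 ± 0.51 (adjusted p = 0.226), with replicate 2 far below the other 3. The second, dimmer probe of Zbp1 was at 0.18, -0.55, -0.02 and 0.13, with a mean of -0.06 that was not called. Ddx58, which encodes RIG-I, was at -0.30 ± 0.27 (adjusted p = 0.0615), and Ifih1, which encodes MDA5, at -0.24 ± 0.20 (adjusted p = 0.0622). Both of these RNA sensors were below 0 on all 4 arrays by the brightest probe. A second, dimmer probe of Ddx58 stood at 0.08, -0.23, 0.10 and 0.03, with a mean of -0.01 that was not called. Eif2ak2, the double-stranded RNA-activated kinase PKR that halts translation, was at -0.23 ± 0.17 (adjusted p = 0.0530), and also below 0 on all 4. Dhx58, the regulatory helicase LGP2, was close to 0 at -0.07 ± 0.28.

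The genes of RNA decay held the lowest mean of the set. Oasl2 encodes an oligoadenylate synthetase-like protein. Its log2 signal was 9.002, 9.016, 9.82 and 9.41 in knockout-labelled replicates 1 to 4 and 9.68, 10.88, 10.14 and 9.75 in wild-type replicates 1 to 4. Knockout-labelled replicate 3 lay above wild-type replicates 1 and 4, so the groups overlapped. The ratios were -0.68, -1.86, -0.32 and -0.33, with a mean of -0.80 ± 0.73, or 1.74-fold, that just missed the threshold (limma, adjusted p = 0.0516). On replicate 2 the wild-type signal was 3.64 times the knockout-labelled one, and without that replicate Oasl2 was at -0.44 and called.
Isg20, an exonuclease that degrades viral RNA, was called. Its signals were 8.996, 9.38, 9.31 and 9.38 in knockout-labelled and 9.37, 9.99, 9.54 and 9.44 in wild-type samples. The ranges overlapped between 9.37 and 9.38. Isg20 fell by 0.32 ± 0.24 (adjusted p = 0.0387), with ratios of -0.37, -0.61, -0.22 and -0.06, and was not called without replicate 1 (-0.30), 2 (-0.22) or 3 (-0.35). Its second probe, dimmer, was at -0.12 and was not called, and on replicate 4 it stood at 0.37.
The oligoadenylate synthetases activate the latent nuclease RNase L. Oas1a was at -0.36 ± 0.70, Oas2 at -0.33 ± 0.45 and the synthetase-like Oasl1 at -0.40 ± 0.85, none of them called (adjusted p from 0.152 to 0.325). On replicate 2 these 3 genes were 2.56-fold, 1.96-fold and 3.15-fold lower. Oas3 was not well above background in the knockout-labelled channel on any array, and in wild type it was on 3 arrays, so its knockout-labelled level has only a bound. Its ratios were 0.00, -0.28, 0.02 and -0.15, with an interval of the mean from -0.24 to 0.04 (adjusted p = 0.254), and the mean turned to 0.55 with median centring. No direction is drawn for Oas3.

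The IFIT proteins bind viral RNA that lacks the cap modifications of the host. Ifit3 had signals of 10.90, 10.78, 11.30 and 11.25 in knockout-labelled and of 11.24, 12.12, 11.45 and 11.21 in wild-type samples. The wild-type sample of replicate 2 was far above the other 7, which overlapped. The ratios were -0.34, -1.34, -0.16 and 0.03, a mean of -0.45 ± 0.61 that was not called (adjusted p = 0.149). Ifit1 was at -0.33 ± 0.60 and was 2.34-fold lower on replicate 2, against ratios between -0.08 and 0.06 on the other arrays. Ifit2, which lies in the same gene cluster, did not share that size: its ratios were 0.05, -0.27, 0.16 and 0.29, and its mean was 0.05, with an interval of -0.15 to 0.26.

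Rsad2 and Cmpk2 are neighbouring genes that are induced together. Rsad2 encodes viperin, which makes a chain-terminating nucleotide, and Cmpk2 a mitochondrial nucleotide kinase. Rsad2 had ratios of -0.23, -1.59, 0.06 and 0.31 and a mean of -0.36 ± 0.85 (adjusted p = 0.374). The probes of Cmpk2 did not follow it. The brighter was at 0.01 ± 0.11, with an interval of -0.11 to 0.13, and was at -0.15 on replicate 2, and the second was at 0.09 and at -0.01 on replicate 2. The interval of Cmpk2 does not reach the median over the set, -0.28, but with median centring in place of loess, where all features had a median of -0.18, Cmpk2 was at -0.25 and called.

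Of the membrane proteins and their chaperone, Ifitm3 was called. It encodes a protein of endosomal membranes that hinders the fusion of enveloped viruses. Its signals were 11.64, 11.75, 12.38 and 12.22 in knockout-labelled replicates and 12.25, 12.78, 12.56 and 12.40 in wild-type replicates. Knockout-labelled replicate 3 lay above wild-type replicate 1. Ifitm3 fell by 0.50 ± 0.41 (adjusted p = 0.0411), or 1.41-fold, with ratios of -0.61, -1.02, -0.18 and -0.18, and lost its call without replicate 1 (-0.46) or 2 (-0.32). Rtp4, a chaperone of receptors, was at -0.15 ± 0.53, 1.87-fold lower on replicate 2 and above 0 on replicates 3 and 4. Bst2, the tethering protein tetherin that holds budding virions at the surface, had the highest mean of the set. Its ratios were 0.08, -0.38, 0.49 and 0.40 and its mean was 0.15 ± 0.39, which was not called (adjusted p = 0.450) and turned to -0.11 with median centring.

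The genes of the ISG15 system and the interferon-induced ubiquitin ligases included 1 called gene. Trim25, the ligase that modifies RIG-I, had signals of 10.94, 10.87, 10.90 and 11.17 in knockout-labelled and of 11.13, 11.47, 11.36 and 11.20 in wild-type samples. Knockout-labelled replicate 4 lay above wild-type replicate 1, and the other 3 knockout-labelled samples were below all wild-type samples. Trim25 fell by 0.32 ± 0.26 (adjusted p = 0.0447), with ratios of -0.19, -0.60, -0.46 and -0.04. Its call ended without replicate 1 (-0.36), 2 (-0.23) or 3 (-0.28).
Trim30a, a regulator of inflammatory signalling, led this group at -0.50 ± 0.49 (adjusted p = 0.0664), with ratios of -0.44, -1.21, -0.22 and -0.14. Its knockout-labelled signals were 7.77, 7.71, 8.17 and 8.12 and its wild-type signals 8.21, 8.91, 8.38 and 8.26, so the groups did not overlap.
Isg15 encodes the ubiquitin-like protein that is attached to other proteins after interferon, and Usp18 the protease that removes it and also blocks the receptor. Both are given by array because their signs turned, which was seen in the values. The signals of Isg15 were 10.82, 10.46, 11.49 and 11.12 in knockout-labelled and 10.93, 11.94, 11.15 and 10.71 in wild-type samples. Its ratios of -0.11, -1.48, 0.34 and 0.42 averaged -0.21 ± 0.88, with an interval of -0.88 to 0.46. Without replicate 2 the mean was 0.21. Usp18 had ratios of -0.30, -1.44, 0.15 and 0.41 and a mean of -0.30 ± 0.82. The ligases Herc6 and Dtx3l were at -0.12 ± 0.13 and -0.12 ± 0.16, and neither was called.

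In the PARP family, Parp14 and Parp9 encode ADP-ribosyltransferases of macrophage and interferon signalling, and Parp9 works with Dtx3l. Parp14 had signals of 8.64, 8.47, 9.19 and 9.07 in knockout-labelled and of 9.14, 9.85, 9.32 and 9.07 in wild-type samples. Its ratios were -0.50 and -1.39 on replicates 1 and 2, -0.13 on replicate 3 and near 0 on replicate 4, and the mean of -0.51 ± 0.62 was not called (adjusted p = 0.117). Parp9 was at -0.22 ± 0.37.

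Of the 7 other induced genes, Lgals3bp was called and had the smallest adjusted p of the set. It encodes a secreted glycoprotein that binds galectins. Its signals were 11.76, 11.89, 12.23 and 12.11 in knockout-labelled and 12.27, 12.70, 12.48 and 12.34 in wild-type samples, with no overlap. Lgals3bp fell by 0.45 ± 0.27 (adjusted p = 0.0187), or 1.37-fold, with ratios of -0.52, -0.81, -0.25 and -0.24. A second probe was at -0.30, called, and below 0 on all 4 arrays. Its call was kept without replicate 2, 3 or 4 and ended without replicate 1 (-0.43).
Xaf1, a pro-apoptotic factor, was at -0.26 ± 0.42, Samd9l, a restriction factor of the translation machinery, at -0.24 ± 0.38 and Ifi44 at -0.20 ± 0.47. Sp100, a component of nuclear bodies, was at -0.11 ± 0.07 with little spread and no overlap of the groups, but turned to 0.12 with median centring. Nmi and Ifi35, which bind each other, were at -0.07 ± 0.26 and -0.01 ± 0.32. None of these 6 was called (adjusted p from 0.121 to 0.949).

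A second kept probe existed for 11 of the 38 genes. It had the same sign as the first for 10, Dtx3l being the exception, was lowest on replicate 2 for 9 and was smaller in size for 9. For Isg15 the second probe was at 0.09, -1.01, 0.49 and 0.37, lowest on replicate 2 like the first but above 0 on replicate 1. For Oas1a it was at -0.17, -0.97, -0.02 and 0.16, which is the order of arrays seen in the first. The probe sequences were not used here. Oas1a, Ifit1, Ifit3, Ifitm3, Isg15 and Trim30a have close copies or pseudogenes in the mouse genome, and signal from a copy was not tested. Genes with an ISRE core in the promoter had a median of -0.30, and -1.02 on replicate 2. Those with a promoter but no match had medians of -0.22 and -0.65, and this difference was not tested.

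The genes that make, receive and limit the interferon signal formed 4 lists. Of 46 such genes listed, 40 were tested, 4 were lower and 1 was higher (against 12.7% and 8.63% of all features), and their median was -0.04, with -0.12, -0.09, -0.02 and -0.01 on replicates 1 to 4. By list the median was -0.03 for the interferons, -0.05 for receptors and kinases, -0.07 for genes of induction and -0.13 for negative regulators, against -0.02 for all features. On replicate 2 these medians were -0.02, -0.06, -0.25 and -0.14. Of 14 interferon genes, 8 were bright enough to be tested and 0 were called by limma, also 0 at an unadjusted p under 0.05. Their mean log2 signal was 6.86 to 6.96 over all 8 samples, and the probe of Ifnb1, for interferon-beta, was too dim to be kept. With signals this dim, a difference in the interferon genes could have been missed. Ifnar2, the receptor chain that binds interferon first, fell by 0.19 ± 0.08 (adjusted p = 0.0281). The other chain, Ifnar1, was at -0.03, Jak1 at -0.08 and Tyk2 at 0.14, none of them called. Of 15 genes that induce interferon, 2 fell and 1 rose. Mavs, the mitochondrial adaptor of RIG-I and MDA5, fell by 0.32 ± 0.11 (adjusted p = 0.00936), and Mb21d1, the DNA sensor cGAS, fell by 0.19 ± 0.08 (adjusted p = 0.0296). Tbk1, a kinase downstream of both, rose by 0.22 ± 0.07 (adjusted p = 0.0168 by limma). Of 12 negative regulators, Samhd1, which depletes nucleotides and limits interferon, fell by 0.32 ± 0.21 (adjusted p = 0.0290). The call of Samhd1 ended without replicate 1, 2 or 3 and that of Ifnar2 without replicate 1, 2 or 4. Without replicate 1 or 2 the induction list had 1 gene lower, and fewer of all features were lower too (4.96% without replicate 2).

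A set of interferon-gamma-induced GTPases was placed beside the antiviral genes, since type I interferon also induces many of them. Of 19 listed, 17 were tested and 4 were lower (23.5%, against 12.7% of all features). Gbp3 was at -0.71, Irgm2 at -0.56, Igtp at -0.52 and Gbp2 at -0.85, all called (adjusted p from 0.0104 to 0.0375). The medians of the GTPases were -0.33, -1.02, -0.22 and -0.10 on replicates 1 to 4, so they too were lowest on replicate 2. Without replicate 2 again 4 GTPases were lower, without replicate 1 it was 1, without replicate 3 it was 2 and without replicate 4 it was 6. In each of these settings fewer of all features were lower than with all 4 arrays, 4.96% without replicate 2. Their centred median in wild-type replicate 2 was 0.37. Genes of MHC class I presentation, 17 tested and 4 lower, had a smaller median of -0.12, with -0.08, -0.29, -0.05 and -0.05 on the 4 arrays. No more than 2 of them were called when any replicate was left out, beside the same smaller shares of all features. No test set these lists against the antiviral genes.

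**Figure D4:**
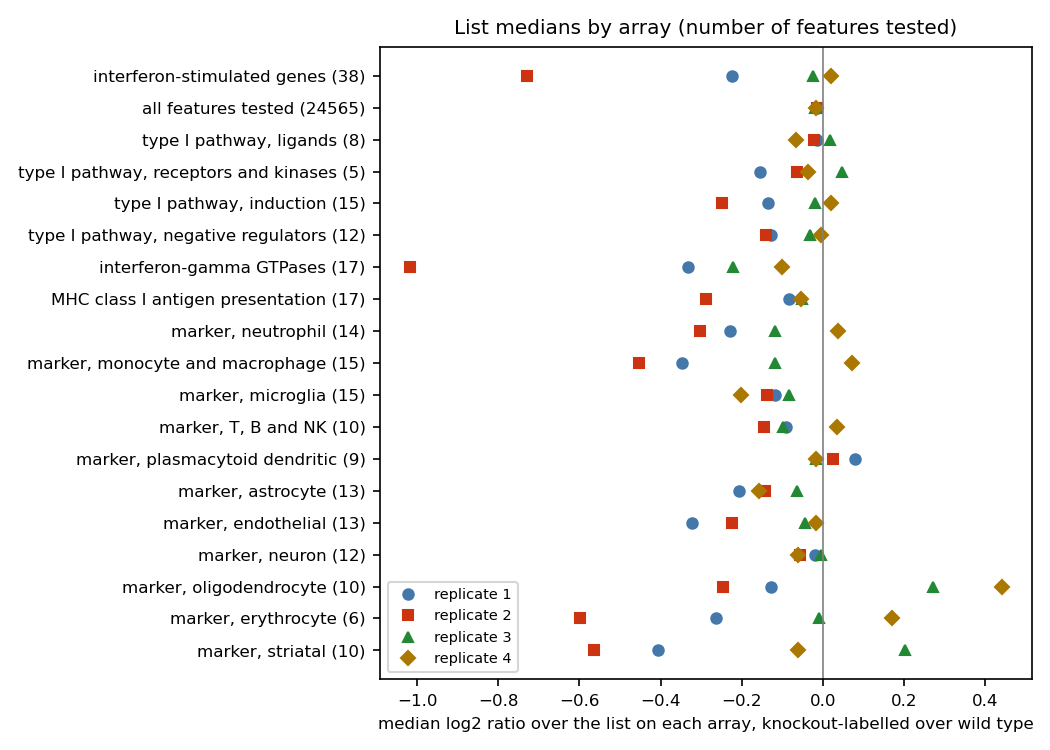
Median log2 ratio (x axis; knockout-labelled over wild type) on each of the 4 arrays for the interferon-stimulated genes, all features, the other lists of the pathway and markers of cell types, with the number of features tested in brackets. On replicate 2 (squares) the interferon-stimulated genes stand at -0.73 and the GTPases at -1.02, while the interferon genes, whose signals were dim, stand at -0.02.

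Markers of cell types that the cortex can hold were counted in the same way, and the counts stand beside 12.7% of all features lower and 8.63% higher. In whole cortex, fewer cells of a type and less RNA per cell cannot be told apart. The highest share was that of microglia markers, of which 7 of 15 were lower (46.7%). When any 1 replicate was left out it was 3 of 15, and fewer of all features were lower too (4.96% without replicate 2). The microglia medians were -0.12, -0.14, -0.08 and -0.20 on replicates 1 to 4. Their mean log2 signals were 11.78 to 11.79 in knockout-labelled and 11.85 to 12.00 in wild-type samples. Of 15 monocyte and macrophage markers 3 were lower, with medians of -0.35, -0.45, -0.12 and 0.07 and mean signals of 9.85 to 10.61 and 10.24 to 10.59. Of 14 neutrophil markers 3 were lower (21.4%), with medians of -0.23, -0.30, -0.12 and 0.04 and mean signals of 8.57 to 9.27 and 8.98 to 9.32. Endothelial markers had 3 of 13 lower (23.1%) and medians of -0.32, -0.22, -0.04 and -0.02. Astrocyte markers had 4 of 13 lower (30.8%), neuron markers 2 of 12 (16.7%) and lymphocyte markers 1 of 10. The lymphocyte medians were -0.09, -0.15, -0.10 and 0.03. In the plasmacytoid dendritic list, which shares Bst2 with the set, 2 of 9 were lower (22.2%), with medians between -0.02 and 0.08. The 2 were Pacsin1 and Siglech, and Siglech is also counted among the 7 microglia markers. Oligodendrocyte markers had 2 of 10 higher and medians of -0.13, -0.25, 0.27 and 0.44. Erythrocyte markers, with 0 of 6 called by limma and 1 lower at an unadjusted p under 0.05, had medians of -0.26, -0.60, -0.01 and 0.17. Striatal markers, with 1 of 10 lower, had -0.41, -0.56, 0.20 and -0.06. The medians of the erythrocyte, striatal, oligodendrocyte, monocyte and macrophage, neutrophil and lymphocyte lists were also lowest on replicate 2, those of the other 5 marker lists were not, and their part in the result was not tested. In wild-type replicate 2 the antiviral genes were at 0.35 above their mean. There the centred medians were 0.00 for neutrophil, -0.07 for monocyte and macrophage, -0.05 for microglia, 0.11 for erythrocyte and 0.14 for striatal markers. In knockout-labelled replicates 1 to 4 the antiviral genes were at -0.15, -0.14, 0.21 and 0.13. Neutrophil markers were at -0.26, -0.10, 0.10 and 0.15 there, and monocyte and macrophage markers at -0.40, -0.16, 0.15 and 0.06. Endothelial markers were at -0.25, -0.14, 0.17 and 0.21, and microglia markers at -0.01, -0.01, 0.04 and -0.02. Erythrocyte markers were at -0.18, -0.22, 0.13 and 0.37, and striatal markers at 0.09, -0.26, 0.12 and 0.03.

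**Figure D5:**
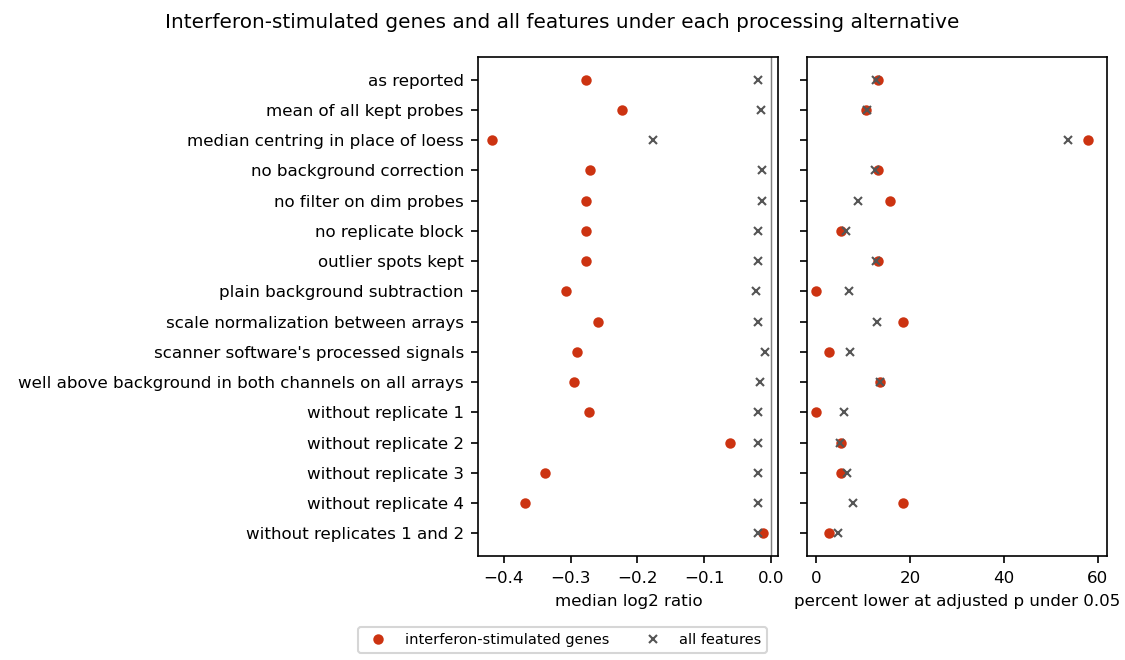
Median log2 ratio (left x axis) and percent of features lower at an adjusted p under 0.05 (right x axis) for the interferon-stimulated genes (circles) and for all features (crosses) under each way of processing the data (y axis). The median of the interferon-stimulated genes stays below 0 in each setting shown. It is nearest to that of all features without replicate 2 (-0.06) and without replicates 1 and 2 (-0.01). The percent lower is near that of all features as reported. It is below that of all features in settings such as plain subtraction, the software's signals and no replicate block. The same holds without replicate 1 and without replicates 1 and 2, while the percent is above that of all features without replicate 4, for example.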

How the data were processed

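Total RNA of 4 knockout-labelled and 4 wild-type cortex samples was hybridised to 4 2-colour arrays on 1 slide. Each labelling used 200 ng of RNA, per the labels' protocols. That text speaks of plant shoots, so it cannot describe this tissue in full. Per the file headers the scanner files came from Agilent Feature Extraction 11.0.1.1, while the submitters' processing notes name 10.7.3.1. The median signals of spots and of local background, as deposited, are linear intensities, and the deposited log ratios are, per the file headers, log10 of Cy5 over Cy3. The log2 values of the deposited series matrix matched the software's Cy5 over Cy3 ratio within 0.001, so they run as wild type over knockout, opposite to the direction used here. Their medians were -0.05, -0.06, -0.04 and -0.03. Other deposited columns are flags, per the file headers.

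With limma 3.58.1 under R 4.3.3 (statmod 1.5.0), background was corrected by normexp (offset 50) and each array by loess, in which controls had weight 0. Controls and 139 to 186 outlier spots per array were then dropped. Probes were kept if at least 3 arrays showed them well above background in one of the channels (30259 of 39429). A RefSeq table of GRCm38.p6 named 27427 probes, and 17017 of the 24565 features had a symbol. The log2 ratio was tested against 0 (lmFit, eBayes), with Benjamini-Hochberg adjustment. The array thus served as the replicate block. Channel levels were taken after loess and Aquantile. They are not comparable between probes. The number of arrays limits the precision. The limma test was tried on simulated ratios with known changes, and the steps before it were not.

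The genes and lists were chosen with earlier results of these data known. All 40 genes could be named. Values on every array were given for genes that were called, beyond 0.5 in size or largest in their role, and for others where said. Of the pathway lists called genes and the receptor chains and kinases were named, of the other lists up to 4. A gene of the receptor and kinase list is not reported here. Alternatives were other background corrections, normalizations, filters and probes, the software's signals, a fit without the pairing and leaving out replicates. Leaving out both replicates 1 and 2 was chosen after seeing the data.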

Additional observations from a re-analysis of the deposited data

Results flagged for a closer look

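The log2 ratios of 3 genes had 1 array far from the other 3, measured as the gap to the nearest array over the whole range. The share was 0.860 for Stat2, 0.894 for Ifit1 and 0.876 for Dtx3l, and in each the array apart was replicate 2. Chance flags about 1 in 20 groups, which is 1.9 of the 38 genes, and 4.70% of all features were flagged, so 3 of 38 is near what all features show. Wild-type levels had 4 of 38 genes flagged (5.21% of all features), 3 of them with replicate 2 apart. Knockout-labelled levels had 1 of 38 (4.72% of all features), and chance would flag about 1.9 in each. The list of MHC class I presentation had a share of 0.862 in its medians by array, with replicate 2 at -0.29 and the others between -0.08 and -0.05.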

How the results depend on the processing

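The median of the 38 genes kept its sign in each setting and ran from -0.42 with median centring in place of loess, which moved the median of all features to -0.18, to -0.06 without replicate 2 and -0.01 without replicates 1 and 2, the latter chosen after seeing the data. Against 5 genes lower, median centring gave 22 lower and 2 higher (Oas3 and Sp100), plain background subtraction 0 (13 at an unadjusted p under 0.05 by limma), the software's signals 1 (Stat2) and no replicate block 2. Leaving out 1 replicate gave 0 to 7. Without replicates 1 and 2, 1 gene was lower (Oasl2) and 2 were higher (Bst2 and Isg15). Over all features, 3109 lower and 2120 higher became 13177 and 6329 with median centring, 1722 and 1337 with plain subtraction and 1561 and 1261 with no replicate block. The software's signals gave 1752 lower, leaving out 1 replicate 1219 to 1918 lower and 808 to 1264 higher, and leaving out replicates 1 and 2 gave 1112 and 699. The cause was not tested, beyond the fewer samples of the last settings. Calls held in 12 of 15 alternatives for Lgals3bp, 9 of 14 each for Stat2, Ifitm3 and Trim25, and 7 of 15 for Isg20. Signs reversed with median centring for Bst2 (-0.11), Cmpk2 (-0.25), Ifit2 (-0.084), Dhx58 (0.17), Ifi44 (0.062), Irf7 (0.034), Oas3 (0.55) and Sp100 (0.12), and for Ifi35 with plain subtraction and with the software's signals (0.0087 each). The second probe of Dtx3l was at 0.073. Over the settings that leave out 1 replicate, values crossed 0 for Cmpk2 (-0.022 to 0.061), Dhx58 (-0.13 to 0.068), Ifi35 (-0.12 to 0.13), Ifi44 (-0.30 to 0.031), Ifit2 (-0.022 to 0.16), Irf7 (-0.27 to 0.080), Isg15 (-0.42 to 0.21), Nmi (-0.14 to 0.048), Oasl1 (-0.61 to 0.017), Rsad2 (-0.58 to 0.048), Rtp4 (-0.31 to 0.10) and Usp18 (-0.53 to 0.087). Signal over background limited Oas3 alone among the 38, the other 37 being well above background in both channels on all arrays.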
